A study of Homo sapiens with 4 samples.

Results

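The clustered protocadherin genes form 3 neighbouring arrays on chromosome 5, PCDHA, PCDHB and PCDHG, and their DNA methylation was read here by whole-genome bisulfite sequencing of HUDEP-2, an immortalised line of human erythroid precursors, in 4 libraries. All CpGs at chr5:140780000-141520000 (hg38) were taken, a stretch of 740 kb chosen by position and not by any measured value. The reference holds 13104 CpGs there, of which 12723 were listed in at least 1 library and 11807, or 90.1%, in all 4. These 11807 shared CpGs, out of 23269121 over chromosomes 1 to 22 and X, carry the comparisons. With GENCODE 44, 53 variable genes lie in the interval, 15 in PCDHA, 16 in PCDHB and 22 in PCDHG.

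The 4 libraries were 1 of untreated, non-differentiated cells and 3 of cells taken through erythroid differentiation, with 4 days of growth and 2 days of maturation. The differentiated cells received the vehicle DMSO alone, a DNMT1 inhibitor or an EED inhibitor, with compounds in 0.1% DMSO from the expansion stage onward. Names and doses of the compounds were not given. DNMT1 is the enzyme that restores CpG methylation after DNA replication, and EED is a core subunit of Polycomb repressive complex 2, which methylates histone H3. All libraries came from a single cell line with 1 library per group, so there was no spread between replicates, and every test below compares the reads of 2 libraries and not the conditions. The DNMT1 inhibitor and EED inhibitor libraries were each compared with the same DMSO library.

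Each variable gene of these arrays has its own promoter and a large first exon that encodes the whole extracellular part of a cadherin-like adhesion protein. In PCDHA and PCDHG that exon is spliced to constant exons at the end of the array, whereas a PCDHB gene has no constant exons. In neurons each cell uses only some of these promoters, and the combination of surface proteins serves self-recognition between neurites. Methylation of a variable promoter and binding of CTCF and cohesin at its conserved element are known to go with silencing and use of that promoter. HUDEP-2 cells are of the erythroid lineage, in which these genes have no well-known role. Expression was not measured, so the label of the cells could be checked only through promoter methylation of marker genes. In the DMSO library, the median over 6 tested promoters of erythroid markers was 23.7%, against 51.1% over 3 promoters of T cell markers, 70.1% over 2 of B cell markers, 37.3% over 4 of myeloid markers and 67.5% over 2 of neural markers. Single promoters departed from this order: AHSP, an erythroid marker, stood at 59.7%, and SLC4A1 and ALAS2, erythroid markers with too few shared CpGs for a test, at 81.4% and 67.9%, while the B cell marker MS4A1, also untested, stood at 18.1%.

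Most variable promoters share a short conserved element with CGCT at its centre. A letter-frequency search took each CGCT from 250 bp before to 50 bp after each GENCODE start as a candidate core, so the CGCT itself was set beforehand. It found a 24-base element in 46 of 53 genes, 12 of 15 in PCDHA, 14 of 16 in PCDHB and 20 of 22 in PCDHG. The CGCT of these elements lay between 95 bp before and 35 bp after the start, with a median of 56 bp before it. The search began from the CGCT nearest to a set distance before each start, so this position is partly a product of the search. PCDHA9, PCDHAC1, PCDHAC2, PCDHB1, PCDHB6, PCDHGB7 and PCDHGC5 had no stretch that scored 12 bits or more. The elements below are printed because their CpG carries the contrasts described next: unmethylated as in most genes (PCDHA1), methylated (PCDHA5 and PCDHA13), unequal between libraries without passing the test (PCDHB3), or identical in sequence and unequal in methylation (PCDHB12 with PCDHB13, PCDHGB5 with PCDHGB4). They are the plus strand of hg38, read 5′ to 3′, and capitals mark the CGCT core.
PCDHA1, chr5:140786090-140786113: gccacatgatgtCGCTgtacacca
PCDHA5, chr5:140821546-140821569: tccacatgatgtCGCTggacaccg
PCDHA13, chr5:140882066-140882089: tgcgcatggtgtCGCTcttcactg
PCDHB3, chr5:141100397-141100420: aacgcatggtggCGCTgttgacta
PCDHB12, chr5:141208647-141208670: gacgcgtggtggCGCTgcaggata
PCDHB13, chr5:141213869-141213892: gacgcgtggtggCGCTgcaggata
PCDHGB4, chr5:141387621-141387644: gactctgggcgcCGCTgttggcca
PCDHGB5, chr5:141397867-141397890: gactctgggcgcCGCTgttggcca
The letters differ by cluster. The longer strings below were not planned beforehand and are letters of the elements found here, so their counts in these genes are a description. The windows of the variable genes are also among all windows. In promoter windows of RefSeq, of 250 bases before to 50 after a start and searched on both strands, GATGTCGCT was present for 9 of 13 matched PCDHA genes and for none of 14 PCDHB or 20 PCDHG genes, against 0.105% of all 35116 windows. GGTGGCGCT, which also holds CGCT, was present for 13 of 14 PCDHB genes and for no gene of the other clusters, against 0.501% of windows. CGCT alone was present for 46 of 47 matched genes and in 70.0% of all windows. The core letters of the CTCF motif, searched as a single string without mismatches that can overlap the other motifs, were present for 1 of 47 genes and in 2.41% of windows. CTCF sites with other letters were not counted, so this does not show how many promoters hold such a site.

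The interval was covered somewhat less deeply than the genome. Mean coverage of its shared CpGs was 24.8 reads in non-differentiated cells and, in differentiated cells, 25.4 for DMSO, 26.0 for the DNMT1 inhibitor and 27.0 for the EED inhibitor, between 0.868 and 0.884 of the genome-wide means. Variable exons resemble each other, and 16.9% of the shared CpGs lay in 100-base stretches that recur in the interval once every C is read as T. Some exons were listed in part: 29.7% of the CpGs in the first exon of PCDHB10 and 53.0% of those of PCDHB16 were listed in all 4 libraries. The repeated share was 43.7% in PCDHB10, 24.6% in PCDHB16 and 71.5% in PCDHB8, of whose CpGs 66.9% were listed. How repeated sequence and missing CpGs went together over all exons was not tested. Levels are methylated reads over all reads. Intervals in brackets are 95% Wilson intervals, which cover counting error only, since the reads carried no molecular identifiers known from the labels and PCR copies cannot be told from separate molecules.

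Methylation of the interval stood at 46.0% in non-differentiated cells, 45.0% for DMSO, 20.6% for the DNMT1 inhibitor and 44.8% for the EED inhibitor. The 3 libraries without the DNMT1 inhibitor lay close together, and the DNMT1 inhibitor library lay far below them. Over the genome the same levels were 61.7%, 60.3%, 16.8% and 59.3%. The interval was therefore less methylated than the genome in 3 libraries and more methylated than it in the DNMT1 inhibitor library. As a share of the DMSO level, the DNMT1 inhibitor library kept 45.8% in the interval and 27.9% over the genome.

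**Figure D1:**
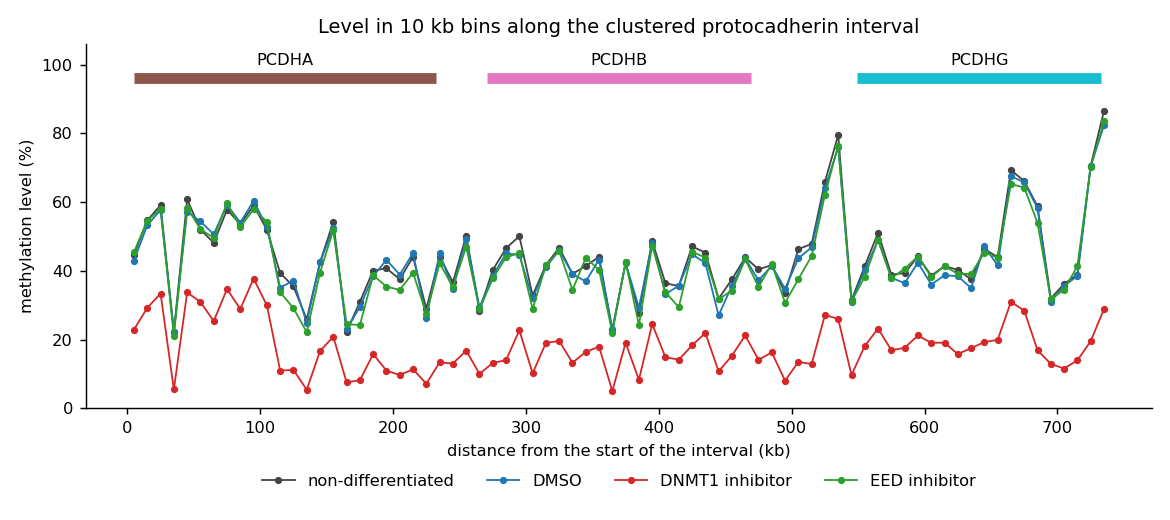
Methylation level in percent (vertical axis) of shared CpGs in bins of 10000 bp, against distance from the start of the interval in kb (horizontal axis), for the 4 libraries, with the extent of each cluster as a bar. The non-differentiated, DMSO and EED inhibitor lines run together, and the DNMT1 inhibitor line lies below them, at 33.4% against 57.7% with DMSO in the bin at 20 kb and 5.49% against 22.3% in the bin at 30 kb. Its order of bins differs: the bin at 730 kb is at 82.3% with DMSO and 28.9% with the inhibitor, and the bin at 90 kb at 60.4% and 37.8%.

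PCDHA was the most methylated of the 3 clusters as a whole, at 50.1% with DMSO, against 43.1% in PCDHG and 39.9% in PCDHB. Among first exons PCDHA was again the highest, but PCDHB stood above PCDHG. The first exons were 2470 to 3027 bp long in PCDHA, 2750 to 7973 bp in PCDHB and 2563 to 2677 bp in PCDHG, so the clusters are compared over unlike stretches. Those of PCDHA stood at 60.03% in the non-differentiated library, 59.5% with DMSO [59.1 to 59.9], 35.3% for the DNMT1 inhibitor and 59.8% for the EED inhibitor, over 2484 CpGs. First exons of PCDHB stood at 46.5%, 45.0%, 21.2% and 45.6% in the same order, over 1677 CpGs. First exons of PCDHG stood at 42.9%, 40.7%, 19.8% and 42.4%, over 2560 CpGs. The order PCDHA, PCDHB, PCDHG held in each library.

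Promoters, taken as the 1000 bp before each start, were less methylated than first exons in all 3 clusters. They stood at 30.1%, 31.02%, 12.2% and 28.5% in PCDHA over 173 CpGs. In PCDHB they stood at 22.2%, 20.6%, 7.11% and 20.9% over 170 CpGs. In PCDHG they stood at 20.8%, 20.3%, 7.72% and 21.8% over 241 CpGs. Each promoter held few CpGs, so these values rest on far fewer reads than those of the exons.

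Gaps, which here include introns of genes whose first exon lies upstream, stood at 34.2%, 34.2%, 10.6% and 32.2% in PCDHA. In PCDHB they stood at 34.5%, 33.3%, 11.4% and 31.7%. Gaps of PCDHG were more methylated, at 52.2%, 51.5%, 17.7% and 51.3%. The constant exons of PCDHG, which every PCDHG transcript shares, were at 78.4%, 72.3%, 26.3% and 73.2% over 35 CpGs, the highest class of the 3 clusters except in the DNMT1 inhibitor library, whereas those of PCDHA stood at 36.5%, 37.8%, 9.82% and 39.3% over 31 CpGs. The constant ends of PCDHG and PCDHA thus differed more than their promoters did.

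**Figure D2:**
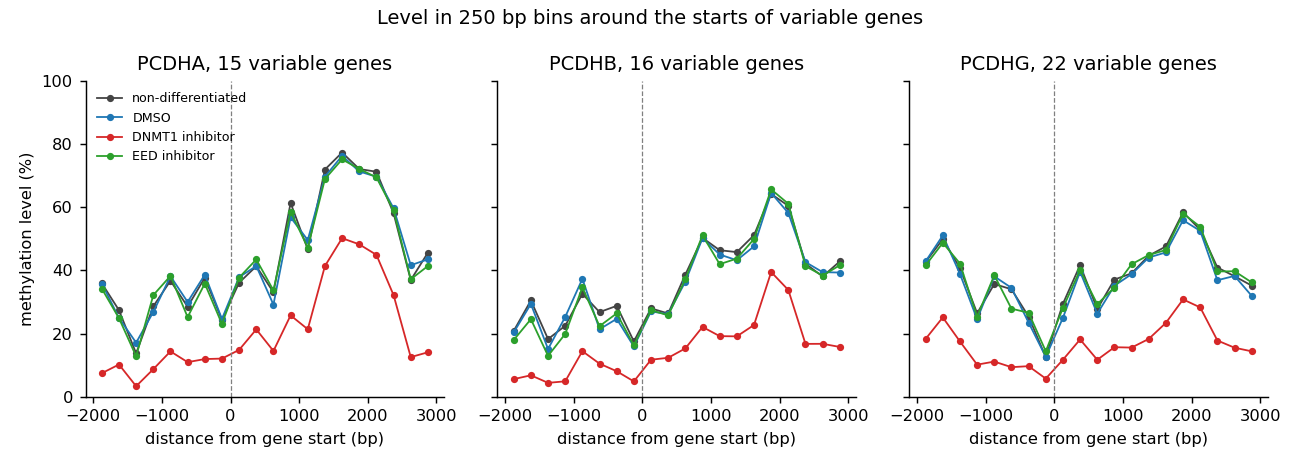
Methylation level in percent (vertical axis) of shared CpGs in bins of 250 bp, against distance from the start of the variable genes in bp (horizontal axis, 0 at the dashed line), for each cluster and library. In the non-differentiated, DMSO and EED inhibitor libraries all 3 clusters are lower in the last 250 bp before the start than in the bins on either side, and all 4 lines peak between 1500 and 2000 bp into the first exon. The DNMT1 inhibitor line has the dip in PCDHB and PCDHG but not in PCDHA, at 11.9%, 12.1% and 14.9% in the bins from 500 bp before to 250 bp after the start.

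Along the genes, methylation was low just before the start and peaked deep in the first exon. In the last 250 bp before the start, levels were 24.3%, 24.7%, 12.1% and 23.1% in PCDHA. They were 17.5%, 15.9%, 4.87% and 16.3% in PCDHB, and 12.5%, 12.7%, 5.75% and 14.4% in PCDHG. These were not the lowest of the profile in PCDHA, where the bin that begins 1500 bp before the start was at 13.7%, 17.1%, 3.35% and 12.8%. The same bin of PCDHB was at 18.3%, 15.1%, 4.41% and 13.0%, below the last 250 bp in the 3 differentiated libraries. The highest bin of PCDHA, from 1500 bp, stood at 77.4%, 76.3%, 50.2% and 75.2%. The highest bins of PCDHB and PCDHG both began at 1750 bp. They stood at 64.2%, 64.5%, 39.5% and 65.7% in PCDHB, where 47.2% of the reference CpGs in that bin were listed in all 4 libraries. In PCDHG they stood at 58.4%, 55.9%, 30.8% and 58.0%.

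Intermediate levels were common in the first exons. CpGs above 20% and below 80% made up 51.4% of first exon CpGs in PCDHA, 54.7% in PCDHB and 55.0% in PCDHG in the non-differentiated library, against 47.2% of all shared CpGs of the interval and 29.4% of those of the genome. With the DNMT1 inhibitor, CpGs at 80% or more made up 5.03% of first exon CpGs in PCDHA, 0.954% in PCDHB and 1.25% in PCDHG. Those with DMSO were 35.3%, 19.1% and 14.6%.

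The CpG of the CGCT core was listed in all 4 libraries for all 46 genes with the element, and in most genes it was nearly unmethylated. Its median level was 3.26% in non-differentiated cells, 3.77% in DMSO, 0% in the DNMT1 inhibitor and 2.86% in the EED inhibitor library. No methylated read was seen at 19, 15, 28 and 18 of the 46 CpGs in the same order. With 13 to 49 reads behind each, a count of 0 allows a level of 6.12% to 23.1% (3 reads of the total). Pooled over genes, the level was 12.4% [10.7 to 14.2], 11.7% [10.1 to 13.5], 5.36% [4.30 to 6.66] and 11.7% [10.1 to 13.4], so a few genes carried most of the methylated reads.

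Those few genes differed sharply from their neighbours. The core CpG of PCDHA5 was methylated in 33 of 33 reads in the non-differentiated library, 29 of 29 in DMSO, 17 of 36 under the DNMT1 inhibitor and 22 of 24 under the EED inhibitor. That of PCDHA13 was methylated in 33 of 33, 22 of 24, 28 of 33 and 28 of 29 reads. PCDHA5 and PCDHA13 were thus the only cores at 90% or more with DMSO, and their DNMT1 inhibitor levels parted, at 47.2% [32.0 to 63.0] and 84.8% [69.1 to 93.4]. The core of PCDHGB5 stood at 48.5%, 63.9%, 15.6% and 50.0%, while the same 24 bases in front of PCDHGB4 stood at 0%, 4.35%, 6.67% and 0%. The core of PCDHB12 stood at 42.4%, 35.3%, 12.2% and 38.7%, and the same 24 bases in front of PCDHB13 at 4.08%, 2.63%, 0% and 0%. In both pairs the levels lay far apart in all 3 libraries without the DNMT1 inhibitor. PCDHA2 and PCDHA3, whose elements are identical too, were closer, at 6.45%, 6.25%, 0% and 0% in PCDHA2 and 15%, 16.3%, 4.35% and 33.3% in PCDHA3, with intervals that overlapped except with the EED inhibitor.

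Methylated and unmethylated reads of each CpG were compared by Fisher's exact test, two-sided, with Benjamini-Hochberg adjustment over all shared CpGs of the genome. A CpG was called where the adjusted p was below 0.01 and the levels were 25 points or more apart. With the DNMT1 inhibitor, 2 of the 46 core CpGs were called lower than with DMSO by the exact test, those of PCDHA5 (adjusted p = 2.95e-06) and PCDHGB5 (adjusted p = 0.000149), and 63.6% of all CpGs in the genome were called lower. Only 4 cores stood at 25% or more with DMSO and could fall by 25 points, and of these PCDHA13 and PCDHB12 were not called. The core of PCDHB3 stood at 45.2%, 11.4%, 5.41% and 39.1%, low with DMSO and high in the non-differentiated and EED inhibitor libraries, but neither difference passed (Fisher's exact test, adjusted p = 1 for DMSO against non-differentiated and 0.485 for the EED inhibitor against DMSO).

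**Figure D3:**
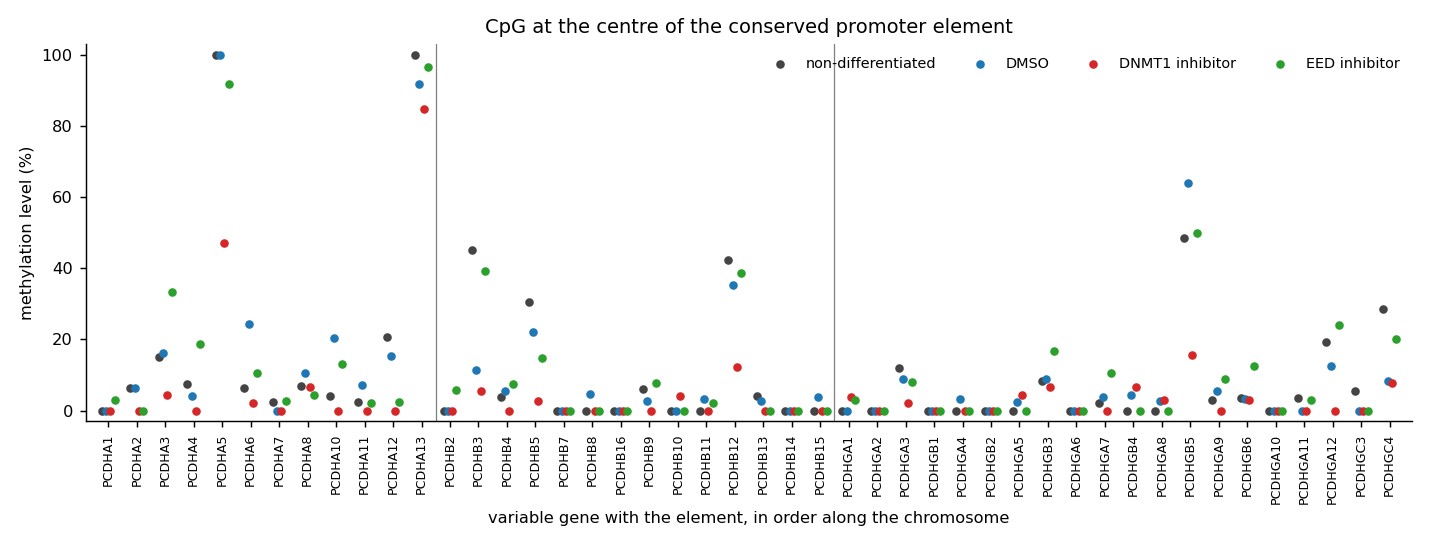
Methylation level in percent (vertical axis) of the CpG in the CGCT core for the 46 variable genes that have the element, in order along the chromosome (horizontal axis), with 1 point per library and vertical lines between clusters. Most points lie near 0, and PCDHA5 and PCDHA13 stand at the top, with the DNMT1 inhibitor at 47.2% and 84.8%.

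Among PCDHA first exons, the 13 genes PCDHA1 to PCDHA13 were more methylated than the C-type genes at the end of the array. PCDHA10 was the highest, at 70.2% in the non-differentiated library, 69.6% with DMSO, 43.5% under the DNMT1 inhibitor and 70.8% under the EED inhibitor. PCDHA2 followed at 68.1%, 66.2%, 37.6% and 67.6%, and PCDHA6 at 66.8%, 62.8%, 38.8% and 63.9%. The lowest were PCDHAC1 at 44.4%, 43.9%, 18.7% and 41.2%, PCDHAC2 at 45.6%, 42.7%, 21.4% and 43.7%, and PCDHA1 at 53.0%, 50.3%, 29.996% and 53.0%. PCDHAC1 and PCDHAC2 are the C-type genes, which in neurons are used more uniformly from cell to cell than the alternate genes.

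PCDHB first exons, each a whole coding sequence, covered a narrower range. The highest in the non-differentiated library were PCDHB13 at 54.2%, 50.7%, 27.5% and 52.8%, PCDHB7 at 53.2%, 53.4%, 28.3% and 52.7%, and PCDHB3 at 52.6%, 53.8%, 24.2% and 51.2%. The lowest were PCDHB16 at 34.4%, 34.7%, 12.9% and 32.5%, PCDHB14 at 35.2%, 31.2%, 12.7% and 36.0%, and PCDHB8 at 40.7%, 40.7%, 18.8% and 39.5%. PCDHB1, which stands apart at the start of the array and lacks the element, stood at 44.1%, 43.6%, 14.98% and 41.7%.

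In PCDHG the highest first exons were PCDHGA2 at 57.2%, 56.1%, 28.8% and 55.2%, PCDHGA3 at 54.3%, 51.5%, 25.9% and 52.7%, and PCDHGA6 at 53.7%, 53.0%, 26.6% and 52.5%. The lowest were PCDHGA10 at 27.3%, 24.4%, 9.83% and 28.1%, and the C-type genes PCDHGC3 at 29.3%, 27.3%, 13.3% and 28.1% and PCDHGC4 at 33.6%, 34.1%, 11.3% and 32.8%. The third C-type gene, PCDHGC5, stood at 46.5%, 45.2%, 19.1% and 46.6%. The C-type genes of PCDHG thus did not share a level.

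Promoter levels ranged more widely than first exon levels and followed another order. The highest of PCDHA in the non-differentiated library were PCDHA13 at 62.3%, 57.8%, 34.2% and 57.9%, PCDHA5 at 47.4%, 49.0%, 20.9% and 42.9%, and PCDHA1 at 33.7%, 32.9%, 12.1% and 34.7%. Its lowest were PCDHA11 at 2.79%, 2.00%, 0% and 1.47%, PCDHA9 at 10.5%, 9.61%, 2.30% and 11.4%, and PCDHA7 at 12.4%, 18.6%, 4.75% and 13.1%. The C-type promoters stood at 32.2%, 36.1%, 14.2% and 33.8% in PCDHAC1 and 26.3%, 31.5%, 6.19% and 26.6% in PCDHAC2. PCDHA13 and PCDHA5, the genes with a methylated core CpG, thus also headed the PCDHA promoters, whose windows include that CpG.

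In PCDHB the highest promoters were PCDHB8 at 42.9%, 42.8%, 19.95% and 44.1%, PCDHB9 at 39.0%, 29.9%, 12.5% and 40.1%, and PCDHB5 at 37.7%, 40.0%, 11.2% and 26.5%. The lowest were PCDHB13 at 3.21%, 2.80%, 0.767% and 3.604%, PCDHB14 at 8.90%, 5.43%, 1.71% and 5.57%, and PCDHB16 at 11.2%, 11.3%, 4.67% and 9.25%. That of PCDHB1 stood at 25.4%, 18.1%, 7.69% and 22.6%. The core CpG of PCDHB8 lies 3 bp after the start, outside the promoter window, and stood at 0%, 4.76%, 0% and 0% over 13 to 27 reads. The promoter of PCDHB13 was nearly unmethylated in front of a first exon that was the most methylated of its cluster in the non-differentiated and EED inhibitor libraries.

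In PCDHG the highest promoters were PCDHGA12 at 63.7%, 58.0%, 33.3% and 57.8%, PCDHGC5 at 38.2%, 48.3%, 14.1% and 39.2%, and PCDHGA11 at 35.7%, 35.8%, 17.5% and 36.5%. The lowest were PCDHGA10 at 0%, 0.719%, 0% and 0%, PCDHGC3 at 3.06%, 4.42%, 1.07% and 3.17%, and PCDHGA6 at 3.77%, 4.65%, 0% and 6.59%. For the promoters at 0% here and in PCDHA11, a count of 0 allows between 1.74% and 2.26%. PCDHGA10 had both the lowest promoter and the lowest first exon of PCDHG. PCDHGC4 also had a low promoter, at 7.13%, 4.91%, 1.36% and 6.61%.

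Over the 53 genes, promoter and first exon levels in the non-differentiated library hardly varied together, with Pearson's r of 0.14 and Spearman's rho of 0.08. This is a description across genes, which share the library and are not independent.

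**Figure D4:**
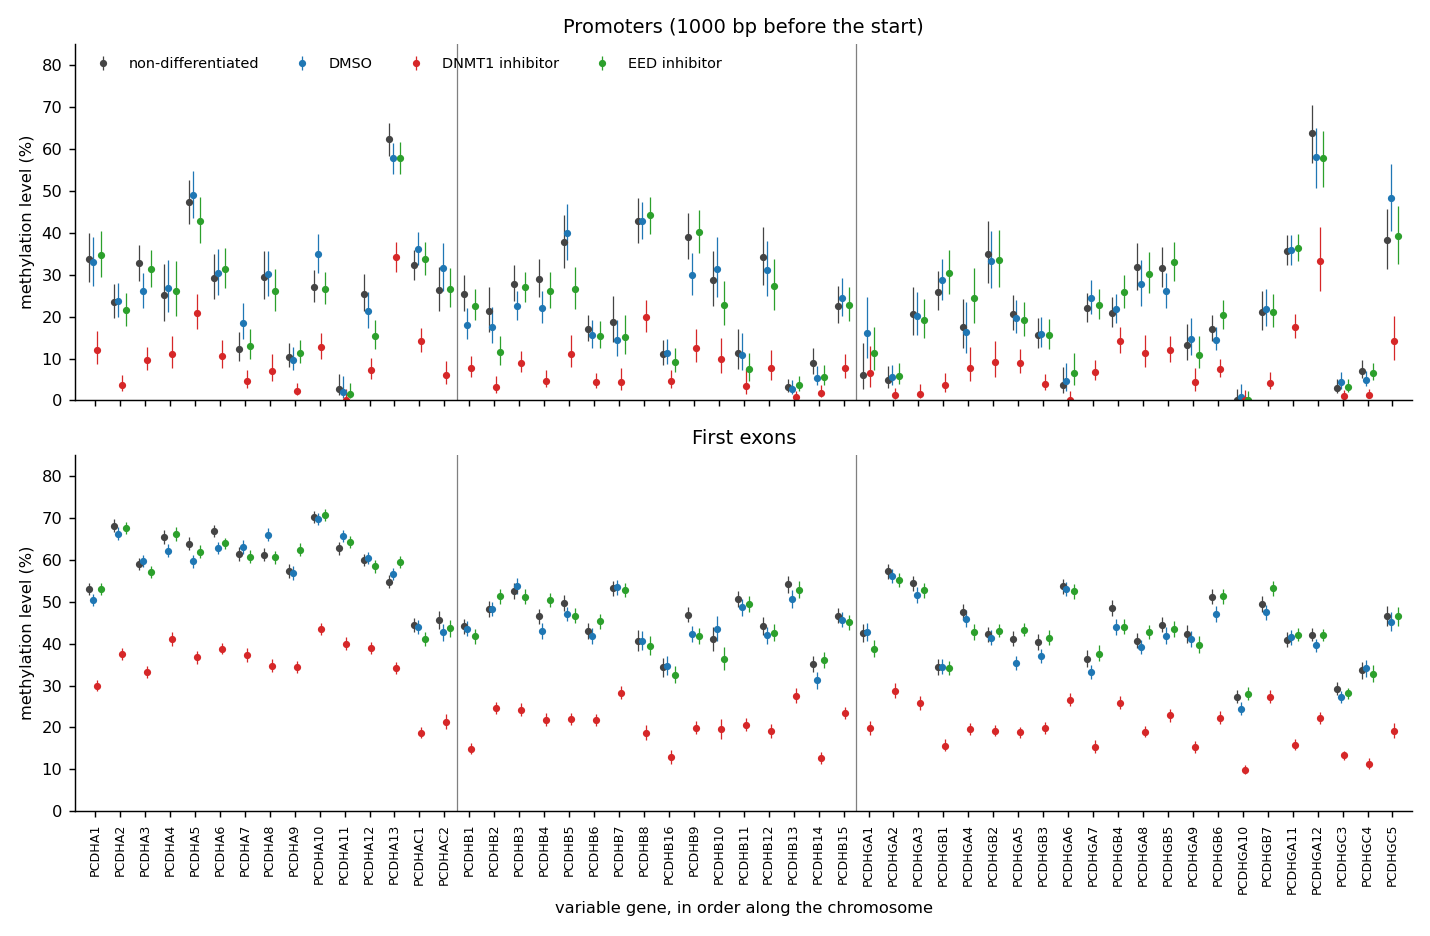
Methylation level in percent (vertical axes) of the promoter (upper panel) and first exon (lower panel) of each variable gene in order along the chromosome, with points for the 4 libraries, 95% Wilson intervals as bars and vertical lines between clusters. First exons with the DNMT1 inhibitor lie between 9.83% and 43.5%, below the other libraries in every gene, and promoters vary more from gene to gene.

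For promoters and first exons, reads were summed over shared CpGs and tested by Fisher's exact test with Benjamini-Hochberg adjustment over all protein-coding genes with at least 5 shared CpGs, 17114 promoters and 7058 first exons. The same thresholds for adjusted p and size were used. With the DNMT1 inhibitor, 4 of 52 tested variable promoters were called lower, while 49.4% of all promoters were, and PCDHGA1, with 4 shared CpGs in its promoter, was not tested. The 4 called were PCDHGC5, which fell by 34.2 points, PCDHB5 by 28.8, PCDHA5 by 28.1 and PCDHAC2 by 25.3, with adjusted p between 4.81e-15 and 4.71e-11. For PCDHAC2 only 10 of 23 promoter CpGs were shared, with 0 in the last 250 bp before the start, and for PCDHGC5 6 of 8. PCDHGB1, with 28.6% with DMSO and 3.70% with the inhibitor, missed the size of 25 points. The smallest differences were those of PCDHGA10 (−0.719 points), PCDHA11 (−2.00), PCDHB13 (−2.03), PCDHGC3 (−3.35) and PCDHGC4 (−3.55), all under 5% with DMSO. The size needed for a call was out of reach for promoters that began under 25%.

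Without the size, 47 of 52 variable promoters were lower at an adjusted p under 0.01, and 83.8% of all promoters were. Neighbouring CpGs share reads, and a test on reads divided by the number of CpGs in each promoter or exon called none of the variable promoters or first exons lower with the DNMT1 inhibitor. It called 4119 of 17114 promoters and 751 of 7058 first exons over the genome.

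First exons were called lower in 19 of 53 genes, 7 in PCDHA, 5 in PCDHB and 7 in PCDHG, and 25.7% of all first exons were. These shares are not like for like, since exons that began under 25% could not be called. All 53 variable first exons stood at 20% or more with DMSO, against 2332 of 7058 first exons. Among exons at that level the median difference was −22.8 points in variable first exons and −40.3 points over all 2332. The largest differences of variable first exons were those of PCDHA8, which fell by 31.3 points, PCDHB3 by 29.6, PCDHA2 by 28.6, PCDHB1 by 28.6 and PCDHB11 by 28.0. The smallest were those of PCDHGC3 (−13.9), PCDHGA10 (−14.6), PCDHGA5 (−16.5), PCDHGB3 (−17.2) and PCDHGA12 (−17.3). Without the size, 53 of 53 variable first exons were lower, against 42% of all first exons, many of which are unmethylated at the start. No variable promoter or first exon was called higher, and none was over the genome.

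Differences in points mix the starting level with the loss, so the level kept, the DNMT1 inhibitor level as a percent of the DMSO level, is given for features at 20% or more with DMSO. The median over the 53 variable first exons was 50.3%, with a range of 33.2% to 66.1%, and the median over 2332 first exons of protein-coding genes was 30.3%. The medians were 60.4% in PCDHA, 46.4% in PCDHB and 48.0% in PCDHG. Every variable first exon thus lay above the median of all first exons. The highest were PCDHA4 at 66.1% and PCDHA12 at 64.5%, and the lowest were PCDHGC4 at 33.2% and PCDHB1 at 34.4%. Among 31 promoters at 20% or more the median was 35.0%, against 23.2% over 10711 promoters. With at least 20 reads per CpG in all 4 libraries, first exons kept a median of 43.97% over 52 variable genes and 28.0% over 1106 exons, and 36.1% and 22.6% were the values for promoters.

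The level kept varied with CpG density. Over the 53 first exons it rose with the number of CpGs per 100 bp, with Pearson's r of 0.78 and Spearman's rho of 0.75. Within clusters r was 0.69 and rho 0.30 in PCDHA over 15 genes, 0.47 and 0.28 in PCDHB over 16, and 0.67 and 0.72 in PCDHG over 22, so by rank the relation was weak in PCDHA and PCDHB. These are descriptions, since all points share the same pair of libraries. The level kept also varied with the DMSO level, with r of 0.67, and with DMSO coverage, with r of −0.41. PCDHB1 had 1.33 CpGs per 100 bp and kept 34.4%, and PCDHA9 had 7.85 and kept 60.4%.

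**Figure D5:**
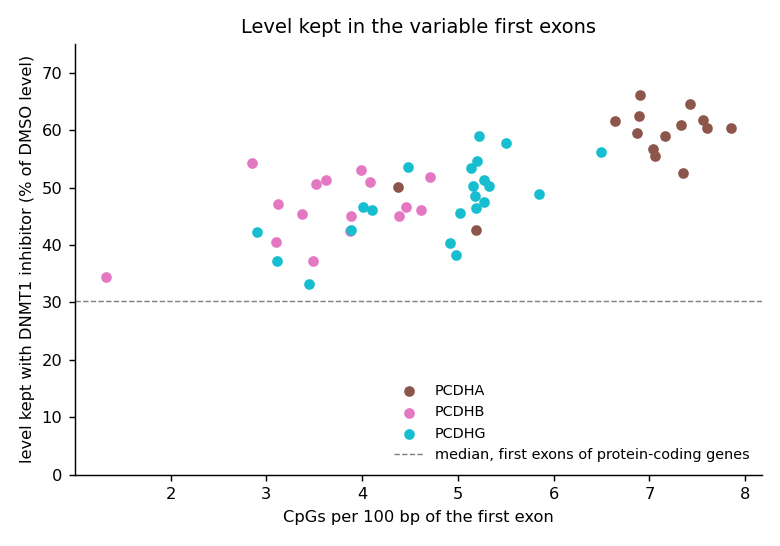
Level kept with the DNMT1 inhibitor as a percent of the DMSO level (vertical axis) against CpGs per 100 bp of the first exon (horizontal axis) for the 53 variable genes, coloured by cluster, with the median of 2332 first exons of protein-coding genes as a dashed line. PCDHA1 to PCDHA13 lie at the upper right, PCDHAC1 and PCDHAC2 lie among the other clusters, and all 53 points lie above the line at 30.3%.

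Variable first exons also kept more than the genome among CpGs with many close neighbours. Among CpGs that started, in non-differentiated cells, at 80% or more and had at least 31 CpGs within 250 bp, those of PCDHA first exons stood at 88.8% with DMSO and 61.2% with the DNMT1 inhibitor, a kept level of 68.9% over 798 CpGs. The kept level was 59.8% in PCDHB over 122 CpGs and 63.1% in PCDHG over 216 CpGs. Over the genome it was 52.4% for 82479 such CpGs and 30.7% for CpGs of any density in that range. The class of 31 or more has no upper limit, so densities within it can differ between clusters and genome. With 21 to 30 CpGs within 250 bp, the kept level was 51.7% in PCDHA over 56 CpGs, 55.0% in PCDHB over 107 and 56.1% in PCDHG over 107. Over the genome it was 40.8%, and among the clusters PCDHA kept the least there. Dense CpGs of the variable exons thus kept more than dense CpGs of the genome in these libraries, and how far coverage or repeated sequence moved with this was not tested.

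Gaps, which are sparser in CpGs, and constant exons kept less. Gaps kept 30.9% of their DMSO level in PCDHA, 34.4% in PCDHB and 34.3% in PCDHG, and constant exons kept 26.0% in PCDHA and 36.4% in PCDHG. At like density the difference was smaller or turned: among CpGs at 80% or more before differentiation with 11 to 20 CpGs within 250 bp, gaps kept 40.3%, 41.1% and 45.6% and first exons 45.3%, 49.8% and 48.6% in PCDHA, PCDHB and PCDHG. With 21 to 30 such neighbours in PCDHB, gaps kept 59.7% over 22 CpGs and first exons 55.0%. Pseudogenes of the arrays carry exon-like sequence without coding for a protein. PCDHA14 stood at 65.8%, 66.4%, 38.2% and 65.4%, a kept level of 57.4%. PCDHGB9P stood at 66.4%, 62.4%, 32.2% and 60.6%, a kept level of 51.6%, and the 4 other pseudogenes kept between 41.6% and 47.5%.

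Other genes between the arrays are SLC25A2, a mitochondrial carrier of basic amino acids, and TAF7, a subunit of the general transcription factor TFIID, both transcribed from the opposite strand. The promoter of SLC25A2 stood at 80.0%, 81.8%, 42.5% and 78.3%, above every variable promoter in each library. The promoter of TAF7 stood at 19.6%, 14.7%, 7.02% and 16.5%. Its first exon stood at 43.2%, 42.5%, 8.94% and 42.5%, and that of SLC25A2 at 64.8%, 60.03%, 24.5% and 58.5%. The TAF7 exon kept less than any variable first exon. A further protein-coding gene without a symbol, ENSG00000279983 within the PCDHB array, stood at 8.15%, 3.92%, 1.51% and 3.604% in its promoter, a window that is nearly the same as that of PCDHB14, and 29.5%, 30.8%, 11.9% and 27.9% in its first exon.

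Of 12 non-clustered protocadherins, adhesion genes of the same family outside the interval, 8 promoters and 9 first exons could be tested. With the DNMT1 inhibitor 2 promoters and 1 first exon were called lower and none higher, and 49.4% of all promoters and 25.7% of all first exons were called lower. The promoters were those of PCDH12, at 39.2%, 40.1%, 3.10% and 42.4%, and PCDH8, at 45.4%, 46.4%, 19.3% and 49.0%. Among 6 of their first exons at 20% or more with DMSO, the median kept level was 54.7%. The first exon of PCDH8 stood at 38.1%, 35.8%, 22.6% and 36.8%, whereas that of PCDH12 stood at 55.5%, 54.5%, 12.2% and 55.2%. No promoter or first exon of these genes was called in the other comparisons.

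Single CpGs of the interval were called less often than those of the genome, but from unlike starting levels. With DMSO, 23.2% of the interval's CpGs stood at 80% or more, against 46.6% of the genome's, and the interval was covered less deeply. With the DNMT1 inhibitor 3227 of the 11807 CpGs, or 27.3%, were called lower than with DMSO, against 63.6% of the genome. The share was 20.3% of first exon CpGs, 17.1% of promoter CpGs and 41.1% of gap CpGs. Within PCDHG it was 18.5% in first exons and 54.3% in constant exons.

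A single CpG was called higher with the DNMT1 inhibitor. It was also the only CpG called higher over the genome, so the genome share of 4.3e-06% is this same CpG. It lies in the first exon of PCDHB15 at chromosome 5 position 141247168, 1773 bp after the start. That CpG had been singled out by an earlier look at these data, so its own values are a description: 6 of 14 reads were methylated in the non-differentiated library, 2 of 15 with DMSO, 15 of 20 under the DNMT1 inhibitor and 5 of 13 under the EED inhibitor. The next CpG, 2 bases upstream at position 141247166, was methylated in 7 of 14, 4 of 14, 15 of 20 and 6 of 13 reads and was not called (Fisher's exact test, adjusted p = 0.0199). Over the 46 shared CpGs within 250 bp, levels were 62.4%, 58.5%, 38.7% and 66.2%, and 10 of them read higher with the DNMT1 inhibitor than with DMSO. Those 10 include the called CpG and its neighbour, so the count was partly set by the choice of the stretch. Over the other 92 CpGs of the exon levels were 42.1%, 41.7%, 18.1% and 39.7%, with 4 reading higher. Mean coverage was 15.3 reads with DMSO in the stretch and 24.7 in the rest, and 65.2% of the stretch's CpGs lay in sequence repeated in the interval, against 31.5% of the rest. The called CpG and its neighbour themselves did not lie in repeated sequence. The part of coverage in the high value was not tested.

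Such readings were more frequent in the variable first exons than over the genome, in sets that were not matched for starting level, density or coverage. Among CpGs at 20% or more with DMSO, 204 of 5276 in variable first exons, or 3.87%, read higher with the DNMT1 inhibitor, and 0.102% of 18295428 CpGs did over the genome. This count was made after the values were seen and has no test. With DMSO, CpGs at 80% or more made up 35.3%, 19.1% and 14.6% of all first exon CpGs in PCDHA, PCDHB and PCDHG, against 46.6% over the genome. How far starting level, density or coverage moved with the count was not tested.

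The DMSO and non-differentiated libraries, which differ in differentiation, vehicle and library at once, differed at few of these features. No promoter, first exon or CpG of the interval was called lower or higher in the DMSO library than in the non-differentiated library; over the genome 0.00584% of promoters were called lower, and no promoter was called higher, nor any first exon or CpG in either direction. Unadjusted, p fell below 0.05 at 6 of 52 promoters (16.2% of all promoters), 19 of 53 first exons (8.87% of all first exons), and 219 of 11807 CpGs with a lower and 113 with a higher level, against 1.62% and 0.931% of all CpGs. The shares of first exons are not like for like here or for the EED inhibitor, since variable first exons held a median of 122 shared CpGs and all first exons at 20% or more with DMSO a median of 12, and more reads let smaller differences pass. First exons were lower with DMSO in 38 of 53 genes, or 71.7%, against 60.2% of 2332 first exons, with a median difference of −1.31 points and −0.881 points in the same order.

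At an adjusted p under 0.01 and any size, 2 variable first exons were lower with DMSO and 1 was higher, against 0.538% and 0.326% of all first exons. PCDHGA5 was lower by −5.86 points (Fisher's exact test, adjusted p = 0.000557) and PCDHA6 by −3.99 points, and PCDHA8 was higher by 4.77 points. Other large differences, in PCDHB9 (−4.65 points), PCDHGB4 (−4.46), PCDHA5 (−4.23) and PCDHGB6 (−4.23) and upward in PCDHA11 (2.98), PCDHB10 (2.42), PCDHA13 (1.78) and PCDHA7 (1.74), did not pass. Among tested promoters the largest differences were −9.17 points in PCDHB9, −7.36 in PCDHB1, −6.95 in PCDHB4, −6.63 in PCDHA3 and −5.78 in PCDHGA12. Upward they were 10.1 points in PCDHGC5, 7.74 in PCDHA10, 6.20 in PCDHA7, 5.16 in PCDHAC2 and 3.95 in PCDHAC1. None of these promoters passed, and at any size 0 of 52 variable promoters were lower or higher, against 1.53% and 0.719% of all promoters.

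The EED inhibitor library differed little from DMSO. No promoter or first exon of the variable genes was called, against 0.0234% of all promoters called higher and 0.0425% and 0.085% of all first exons called lower and higher. At unadjusted p under 0.05 there were 7 of 52 promoters (19.7% of all) and 24 of 53 first exons (11.6% of all). At an adjusted p under 0.01 and any size, 1 variable first exon was lower and 4 were higher, against 0.439% and 1.36% of all first exons, and 0 of 52 promoters, against 1.39% lower and 1.88% higher of all promoters.

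PCDHGA5 had the largest of these differences. Its first exon stood at 41.2% in the non-differentiated library, 35.3% with DMSO, 18.9% under the DNMT1 inhibitor and 43.3% under the EED inhibitor, a difference of 7.98 points between the EED inhibitor and DMSO. The DMSO value is the low one, and since that library enters both comparisons the differences of −5.86 and 7.98 points are not independent. PCDHB4 at 46.5%, 43.1%, 21.8% and 50.4% was higher by 7.27 points, PCDHGB7 at 49.4%, 47.4%, 27.4% and 53.2% by 5.72 points, and PCDHA9 at 57.2%, 56.9%, 34.4% and 62.4% by 5.49 points. PCDHA8 at 61.2%, 66.0%, 34.7% and 60.6% was lower by −5.40 points, and there too DMSO was the library apart.

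First exons were higher with the EED inhibitor than with DMSO in 31 of 53 genes, or 58.5%, against 50.3% of 2332 first exons. Against the non-differentiated library they were higher in 20 of 53 and in 960 of 2332 first exons. The majority thus depended on which library served as the reference, among variable first exons as among all. With that reference, 0 variable first exons were lower and 2 were higher at an adjusted p under 0.01 and any size, against 34 and 48 of 7058 first exons. The other large differences from DMSO, −7.03 points in PCDHB10, −3.90 in PCDHGA1, −3.11 in PCDHGA4, −2.74 in PCDHAC1 and 4.74 in PCDHB14, did not pass. Nor did those of promoters, of which the largest were −13.5 points in PCDHB5 (Fisher's exact test, adjusted p = 0.0362), −9.05 in PCDHGC5, −8.66 in PCDHB10, −8.23 in PCDHA10 and −6.16 in PCDHB2, and 10.2 in PCDHB9, 7.95 in PCDHGA4, 6.99 in PCDHGB5, 5.81 in PCDHGB6 and 5.25 in PCDHA3.

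A single CpG of the interval was called lower with the EED inhibitor, against 0.00374% of the genome, and none higher, against 0.000623%. It lies 925 bp before the start of PCDHB5, at chromosome 5 position 141134281, and was methylated in 9 of 35 reads in the non-differentiated library, 15 of 33 with DMSO, 8 of 42 under the DNMT1 inhibitor and 0 of 51 under the EED inhibitor (Fisher's exact test, adjusted p = 0.00335). The count of 0 allows a level of up to 5.88%. It is 1 of the 7 shared CpGs of the PCDHB5 promoter, and the other 6 stood at 38.9% with DMSO and 32.1% with the EED inhibitor, so the promoter's difference of −13.5 points rested in part on this CpG.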

How the data were processed

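Per the labels' protocols, genomic DNA with added lambda DNA was bisulfite-converted and made into Accel-NGS Methyl-Seq libraries. The submitters' processing notes name Trim Galore 0.6.7, cutadapt 4.1, Bismark, Bowtie2 2.1.0, methylKit and hg38. Removal of duplicates and read-end trimming settings were not given in the sources used here, and either can move levels. The authors deposited, for each library, the coverage count of every CpG with at least 10 reads and the percent of its reads with C and T, per the file headers and values. CpGs under 10 reads are missing. Methylated reads were recovered from count and percent.

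CpGs in all 4 libraries were assigned to promoters (1000 bp before the start), first exons, constant exons, pseudogenes, other genes or gaps (GENCODE 44, MANE Select or canonical transcripts). Fisher's exact tests with Benjamini-Hochberg adjustment ran over all promoters, first exons or CpGs of chromosomes 1 to 22 and X, with Python 3.11.15, numpy 2.4.6, scipy 1.17.1 and numba 0.67.0. The promoter and first exon tests were tried on simulated reads, drawn independently, so reads shared by neighbouring CpGs were left out. Single CpG tests were not simulated. Differences are DMSO minus non-differentiated and inhibitor minus DMSO. The element was found by iterated letter frequencies among stretches around a CGCT. Its CpG was thus required by the search, but the methylation of that CpG played no part in it.

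Genes named are the 3 lowest and 3 highest levels per cluster in the non-differentiated library, the 5 largest differences in each direction and comparison, the C-type genes, PCDHB1, PCDHB15 and other genes of the interval. Others, such as those of the element paragraphs and of the level kept, were named after their values were seen. Members, lists and rules were chosen with earlier results of these data known. A list of genes for factors that act on the clusters is not reported here.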

Additional observations from a re-analysis of the deposited data

How the results depend on the processing

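No paired analysis was possible because each group had 1 library, and no library could be left out for the same reason. The EED inhibitor differences in PCDHB and in its first exons, whose counting intervals spanned 0, changed sign between settings. That in PCDHG constant exons also turned, from higher with the EED inhibitor over all shared CpGs to lower at 20 reads or more. Once reads were divided by CpG number, 0 variable promoters and 0 first exons were called lower with the DNMT1 inhibitor, against 4 and 19 with all reads. At 15 points 27 promoters and 51 first exons were called (genome: 10815 of 17114 and 2221 of 7058), with 500 bp promoters 2 of 48 promoters (3361 of 12949), and against the non-differentiated library, an alternative added after seeing the data, 7 promoters and 22 first exons (8672 of 17114 and 1863 of 7058). At 20 reads or more 2066 of 5979 CpGs were called lower and 0 higher with the DNMT1 inhibitor (9830719 and 0 of 14292706), against 3227 and 1 of all. At an adjusted p under 0.05, 2 CpGs were called higher with the DNMT1 inhibitor, and 5 lower and 2 higher with the EED inhibitor (43, 5676 and 1288 of 23269121). The cause of these changes was not tested.

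Differences in level moved beyond their counting intervals as follows. At 20 reads or more the differentiation difference was −1.29 points in PCDHA first exons, and the DNMT1 inhibitor differences were −21.2 in PCDHB, −20.0 in its gaps and −35.2 in PCDHG constant exons. In that setting the EED inhibitor differences were −1.45 in PCDHA, −0.587 in PCDHB first exons, 0.546 in PCDHG, 1.15 in its first exons and −8.74 in its constant exons. With every CpG weighted equally, the differentiation differences were −0.687 in PCDHA and −1.21 in its first exons, the DNMT1 inhibitor differences −24.8 in PCDHA, −25.4 in its gaps, −23.4 in PCDHB, −23.6 in its gaps and −35.1 in PCDHG gaps, and the EED inhibitor difference −0.345 in PCDHA. Over all CpGs listed in each library, the EED inhibitor differences were 0.393 in PCDHB and 1.39 in its first exons. Over CpGs in sequence not repeated in the interval, added after seeing the data, the DNMT1 inhibitor difference was −22.0 in PCDHB and the EED inhibitor difference −0.174 in PCDHB first exons.

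Median levels kept by first exons at 20 reads or more were 50.2% in PCDHA, 38.6% in PCDHB and 43.6% in PCDHG, and 40.4% for PCDHG promoters. With CpGs weighted equally they were 48.3% in PCDHB and 50.2% in PCDHG first exons, in sequence not repeated 58.3% in PCDHA and 41.7% in PCDHB, and at 50% or more with DMSO 53.0% in PCDHB and 50.3% in PCDHG, with 59.3% and 57.5% for 1 promoter each in PCDHA and PCDHG. PCDHA first exons kept the most of the 3 clusters in each of these settings. They kept the least among CpGs at 80% or more before differentiation with 11 to 20 or 21 to 30 CpGs within 250 bp. A limit of 10 reads per CpG, missing CpGs in repeated exons and the lack of replicates bound all values.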
